A study of Mus musculus with 2 samples.

Results

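The genes of glucose uptake and glycolysis were examined in total RNA of mouse heart, as a set of 32 genes listed by name: 5 glucose transporters, the enzymes that turn glucose into pyruvate and lactate with their isoenzymes (products of different genes that carry out the same step), the bifunctional enzymes that regulate phosphofructokinase, and the side enzymes Bpgm and Ldhd. All 32 were found among the 55536 annotated genes, of which 22015 were nuclear protein-coding genes. The hearts came from B6CASTF1/J females, the F1 cross of C57BL/6J and CAST/EiJ, at an age of 14 days, and the labels name no treatment. There was 1 group of 2 libraries (300 ng of input RNA in each, plus the ERCC spike-ins) and no second condition, so that the study asks what this tissue expresses. Both libraries carry the same donor label, and their shared description can be read as a pool of females while the tissue labels number the animals differently. The SD (n = 2) given below is therefore the spread between these libraries and may be partly technical.

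Glucose enters a muscle cell through transporters of the Slc2a family, is trapped as glucose 6-phosphate by hexokinase, and is committed to glycolysis by phosphofructokinase. The lower steps, from aldolase to pyruvate kinase, split the sugar and yield ATP and pyruvate, and lactate dehydrogenase interconverts pyruvate and lactate. Most steps have a form typical of striated muscle and others found in many tissues. The heart of an adult mammal takes most of its ATP from fatty acids, and its glucose use changes from fetal life through the suckling period.

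Replicates 1 and 2 held 36197643 and 34358598 expected counts in annotated genes. Levels are given as TPM (a transcript count divided by transcript length and scaled to the library), which allows different genes to be compared. Unless stated otherwise they come from the gene tables in the format of RSEM, called the first quantification, and transcript tables in the format of kallisto are the second quantification. The labelled tissue matched its markers: all 10 cardiomyocyte markers were at 1 TPM or more, summing to 43493 and 45101 TPM. Replicate 1 stood apart in the markers of 2 other tissues: 6 of 7 erythroid markers were at least 1.2-fold higher there (summing to 35952 against 27772 TPM), and so were 5 of the 6 airway epithelium markers (178 against 11.0 TPM for all 6). In bulk tissue, a change in the number of cells of a type and in the RNA per cell cannot be told apart.

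The set ranged from Gapdh, at a mean of 1687 TPM, to genes with hardly a read. In the plot of levels by step, 11 members lay above 100 TPM on average, 9 between 10 and 100, 9 between 1 and 10, and 3 below 1 (Hk3, Hkdc1 and Aldoc). The median of the 32 member means was 47.7 TPM, beside 9.77 TPM over the 11720 nuclear protein-coding genes with a mean of at least 1 TPM. The members took 1.70% and 1.74% of the TPM of nuclear protein-coding genes in replicates 1 and 2. Gapdh, Aldoa, Ldhb, Eno3, Pkm and Pgam2, enzymes of the lower steps and of lactate dehydrogenase, together held 73.3% and 73.7% of the members' TPM.

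**Figure D1:**
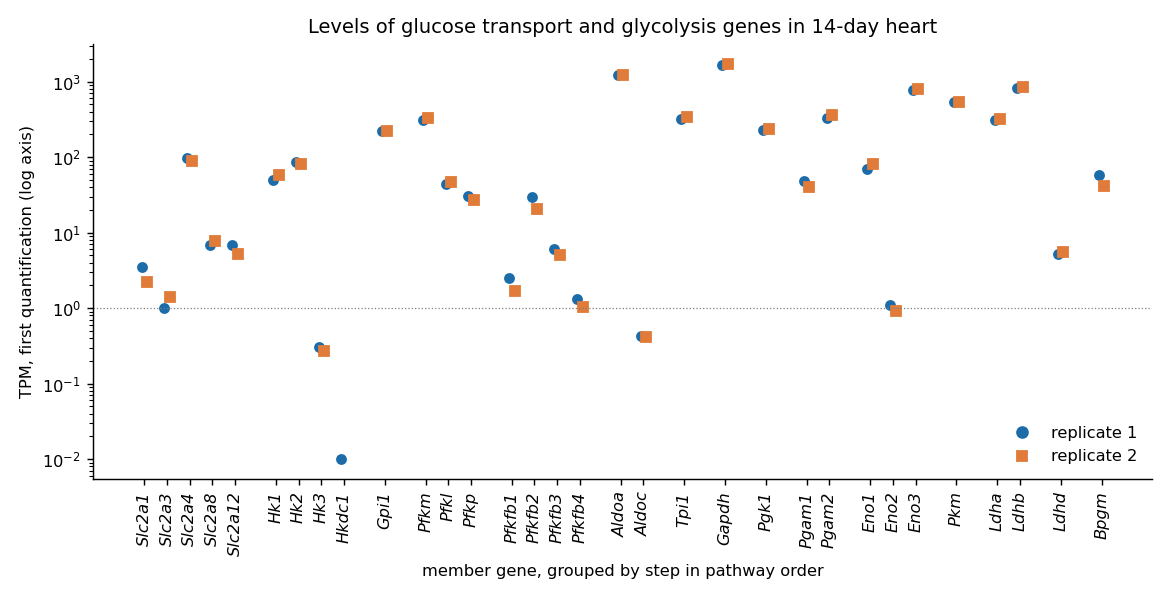
TPM of each member (log axis) in replicate 1 (circles) and replicate 2 (squares), grouped by step in pathway order, with a dotted line at 1 TPM. The steps from Aldoa to Ldhb hold the highest points, with Gapdh at 1642 and 1731 TPM. Hkdc1 has no point for replicate 2, where it had a count of 0.

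The insulin-responsive transporter Slc2a4 (GLUT4, chr11:69942539-69948188, minus strand, mm10) made up most of the transporter RNA. It stood at 98.0 TPM in replicate 1 and 89.6 TPM in replicate 2, and took 84.3% ± 0.0416 (SD, n = 2) of the TPM of the 5 transporters. The intracellular transporter Slc2a8 was at 6.82 and 7.80 TPM, and Slc2a12, a transporter found in heart, muscle and fat, at 6.97 and 5.29 TPM. The order of Slc2a8 and Slc2a12 differed between the libraries. The widely expressed Slc2a1 (GLUT1), which supplies basal uptake and is the transporter of the fetal heart, was at 3.55 and 2.22 TPM. Slc2a3, the high-affinity transporter best known from neurons, was at 1.01 and 1.39 TPM from 76 counts in each library. Slc2a4 was 14.4 and 11.5 times as high in TPM as Slc2a8, the next transporter by mean level. Slc2a1 lay below Slc2a12 in both libraries in the first quantification, but above it in replicate 1 in the second.

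Hexokinase was the step where the 2 leading isoenzymes came closest to each other. Hk2, the insulin-regulated form of muscle and heart (chr6:82725025-82774454, minus strand), was at 86.3 and 81.7 TPM, and the widely expressed Hk1 (chr10:62268855-62379908, minus strand) at 50.4 and 59.0 TPM. Hk2 thus exceeded Hk1 in both libraries, by 1.71-fold and 1.39-fold, and held 60.5% ± 3.57 of the hexokinase TPM. In the second quantification that share was 55.8% in replicate 1 and 49.9% in replicate 2, where Hk1 and Hk2 both stood at 77.0 TPM, so the lead of Hk2 did not appear in every table. Hk3, a form of myeloid cells, had 25 and 22 counts (0.31 and 0.27 TPM). Hkdc1 had 1 count and 0 counts, and in replicate 2 the limit that a count of 0 allows is 3 counts, equal to 0.0873 CPM (counts scaled to the library total), for counting error only. Gpi1, the isomerase that follows hexokinase and has no second gene in the set, was at 220.0 and 220.3 TPM.

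Phosphofructokinase was led by its muscle subunit. Pfkm (chr15:98092589-98132451, plus strand) was at 313.0 and 326.5 TPM, the liver-type subunit Pfkl at 44.8 and 46.6 TPM, and the platelet-type Pfkp at 30.5 and 27.1 TPM. Pfkm held 81.1% ± 0.680 of the TPM of the 3 genes, and its ratio to Pfkl hardly differed between the libraries (6.993 and 7.004). The active enzyme is a tetramer that can mix subunits, which RNA levels do not show.

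The bifunctional enzymes that make and break fructose 2,6-bisphosphate, the activator of phosphofructokinase, were far lower than the enzyme they regulate. Pfkfb2, the heart isoform, was at 29.6 TPM in replicate 1 and 20.9 TPM in replicate 2 and held 73.8% ± 1.60 of the TPM of the 4 genes. Pfkfb3, the inducible form, followed at 6.05 and 5.13 TPM. Pfkfb1, known from liver and skeletal muscle, was at 2.53 and 1.71 TPM, and Pfkfb4, known from testis and tumours, at 1.33 and 1.02 TPM. The 4 genes kept this order in both libraries and in both quantifications. Their sum was 39.5 TPM in replicate 1 and 28.8 in replicate 2, a gap that came mainly from Pfkfb2.

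Aldolase was in effect a single gene at the RNA level. Aldoa, the muscle and general form (chr7:126795234-126800751, minus strand), was at 1216 and 1225 TPM, whereas Aldoc, the form of brain, had 10 and 17 counts (0.43 and 0.42 TPM). Aldoa thus held 99.97% of the TPM of the pair. Triose phosphate isomerase, Tpi1, which interconverts the products of aldolase, was at 323.0 and 343.7 TPM.

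Gapdh, which oxidizes glyceraldehyde phosphate and is often used as a reference gene, had the highest TPM of the set at 1642 and 1731 (chr6:125161715-125166467, minus strand), and phosphoglycerate kinase, Pgk1, which makes the first ATP of the lower steps, stood at 232.0 and 238.2 TPM. With the counts of the first quantification, the rank of Gapdh depended on the length used. The second quantification gave Gapdh more counts (48130 and 46326), for which no other length was tried. The first quantification placed most of its TPM on a transcript of 483 bases, which gave the gene an effective length of 603 and 597 bases. When counts were divided instead by the effective length of the longest protein-coding transcript of each gene, a calculation added after the data were seen, Gapdh had 21067 and 21218 counts per kilobase and took rank 3 among the steps. Aldolase then led with 32728 and 31270, and lactate dehydrogenase followed with 27354 and 27025. The ranks of 6 of the 15 steps moved in at least 1 of the 2 other orders (this one and that of the second quantification), by at most 2 places.

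Phosphoglycerate mutase was led by Pgam2, the muscle subunit (chr11:5801640-5803733, minus strand), at 333.3 and 359.9 TPM. The general subunit Pgam1 (chr19:41911923-41918660, plus strand) was at 48.0 and 40.5 TPM. Pgam2 exceeded it by 6.94-fold and 8.89-fold and held 88.6% ± 1.76 of the TPM. Pgam2 transcripts are short (840 bases), so its share was lower, 77.8%, in counts that are not divided by length. Bpgm, the related mutase that makes the bisphosphoglycerate by which red cells tune the oxygen affinity of hemoglobin, was at 58.1 and 41.5 TPM.

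Enolase was led by its muscle form. Eno3 (chr11:70657202-70662513, plus strand) was at 786.0 and 797.0 TPM, the general form Eno1 at 69.0 and 80.2 TPM, and the neuronal form Eno2 at 1.10 and 0.91 TPM. Eno3 held 91.3% ± 0.736 of the TPM of the 3 genes. Eno1b, a protein-coding gene not in the set and named here after its values were seen, shares long stretches with Eno1 and stood at 27.6 and 30.0 TPM. Counting it with the enolases lowered the share of Eno3 to 88.4%.

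Lactate dehydrogenase was led by the heart subunit. Ldhb (chr6:142490249-142507957, minus strand), the subunit typical of oxidative tissues, was at 834.6 and 852.2 TPM, and the muscle subunit Ldha (chr7:46841475-46855627, plus strand) at 312.1 and 320.0 TPM. The ratio of Ldhb to Ldha was 2.67 and 2.66, and the share of Ldhb 72.7% ± 0.0570. That share was 81.7% and 80.8% in the second quantification and 64.8% in counts without a correction for length. Ldhb was the higher in every table, while the size of its lead depended on how its transcripts were divided. Ldhd, a mitochondrial enzyme of D-lactate, was at 5.20 and 5.57 TPM.

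**Figure D2:**
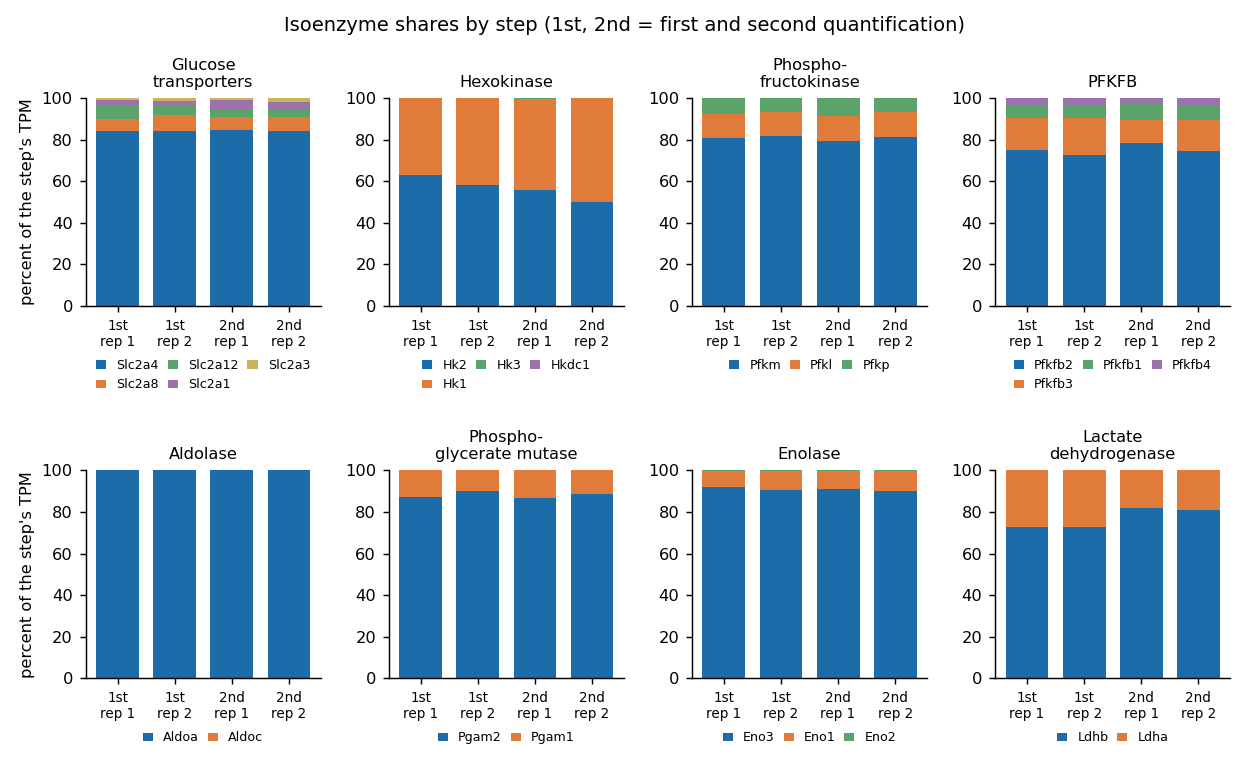
Percent of the summed TPM of each step with several genes, in replicates 1 and 2 of the first (1st) and second (2nd) quantification; colours are genes, from the highest at the bottom. The same gene leads all 4 bars in every step except hexokinase, where Hk1 and Hk2 are equal in replicate 2 of the second quantification (49.9% each).

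The coding sequences of the isoenzymes in the set were compared with each other, while the separation of single reads was not tested. Over the 31 pairs of genes that share a step, the longest coding sequences were 53.8% (Slc2a4 and Slc2a12) to 77.8% (Eno2 and Eno3) identical in aligned bases, and no pair shared a stretch of 100 identical bases. Summed over genes, the steps fell in the order Gapdh, aldolase, lactate dehydrogenase (1159 ± 18.1 TPM), enolase (867 ± 15.5), pyruvate kinase, phosphofructokinase (394 ± 8.47) and phosphoglycerate mutase (391 ± 13.5). The latter pair did not differ beyond their spread. Hexokinase (139 ± 2.79 TPM) and the transporters (111 ± 7.12 TPM) stood near the end of the list, above only Bpgm, the bifunctional enzymes (34.2 ± 7.62 TPM) and Ldhd.

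Pyruvate kinase of muscle, Pkm (chr9:59656368-59679375, plus strand), makes 2 enzymes from 1 gene. They differ by a pair of mutually exclusive exons: the M1 form, typical of adult muscle, brain and heart, is constitutively active, and the M2 form, typical of fetal and proliferating cells, is regulated. The exons are shown because the level of Pkm divides between them. The M1 exon lies at chr9:59675029-59675195 and the M2 exon at chr9:59675568-59675734 (mm10, plus strand, coding). Each is 167 bases long and the ninth exon of its transcript, with 103 bases the same and 64 different, and capitals mark the bases that differ.
M1 exon (Pkm-202): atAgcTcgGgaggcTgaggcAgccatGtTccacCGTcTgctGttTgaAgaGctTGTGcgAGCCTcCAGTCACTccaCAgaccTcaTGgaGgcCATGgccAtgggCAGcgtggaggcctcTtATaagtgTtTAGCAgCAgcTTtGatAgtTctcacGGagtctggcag
M2 exon (Pkm-201): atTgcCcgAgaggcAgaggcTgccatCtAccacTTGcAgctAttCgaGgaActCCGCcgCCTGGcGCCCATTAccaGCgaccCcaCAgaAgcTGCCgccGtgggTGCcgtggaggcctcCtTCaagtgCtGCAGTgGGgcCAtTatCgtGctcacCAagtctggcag

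Both forms were present at nearly equal levels. Pkm as a whole was at 538.8 and 539.1 TPM. The transcript with the M1 exon was at 264.3 and 269.9 TPM and that with the M2 exon at 256.8 and 253.9 TPM, so that M1 took 50.7% and 51.5% of the 2 forms. In the second quantification M1 took 47.0% and 47.4%, which turned the order round. The lead of either form was thus smaller than the difference between the quantifications. Each exon occurs in a single annotated transcript, and the transcripts differ also in their ends, with 839 bases outside the coding sequence in Pkm-201 and 448 in Pkm-202. The deposited tables hold no counts of exon junctions, so the division rests on all reads of these transcripts and not on the exons alone.

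Among the 20 members with a mean of at least 10 TPM, Pgam2 has a single annotated transcript. In the other 19, the transcript with the highest share of the gene's TPM was the same in both quantifications in 13, and differed in Hk1, Gapdh, Eno3, Pkm, Ldha and Ldhb. In the first quantification the top transcript reached a share of 50% in 14 of these 19 genes and of 90% in 6, namely Slc2a4, Aldoa, Tpi1, Pgk1, Pgam1 and Ldha. In the second it reached 50% in 11.

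Gapdh showed the widest disagreement. Gapdh-208, a processed transcript of 483 bases with no annotated coding sequence, took 72.1% and 72.8% of the gene's TPM in the first quantification, and Gapdh-201, a coding transcript of 1272 bases, took 26.2% and 26.0%. The second quantification listed both at 0. It placed the TPM on 3 coding transcripts instead, Gapdh-207 (471 bases, 42.5% and 47.4%), Gapdh-203 (1420 bases, 29.4% and 26.4%) and Gapdh-209 (482 bases, 22.8% and 22.1%). Short transcripts thus led in both. For Ldhb the full-length Ldhb-201 (1304 bases) held 78.0% in each library in the first quantification and 35.1% and 33.5% in the second, where the 437-base Ldhb-202 held 35.9% and 37.8%. Transcripts under 1000 bases made up 22.0% of Ldhb in the first quantification and 64.9% and 66.5% in the second. For Ldha the change was between Ldha-202, at 97.4% and 99.2% in the first, and Ldha-201, listed at 0 there and at 57.7% and 50.5% in the second. For Eno3 a coding transcript of 1454 bases led the first (46.4% and 43.7%) and a coding transcript of 1564 bases the second (77.2% and 79.6%). For Hk1 it was a transcript of 4278 bases (59.3% and 56.3%) in the first and one of 2916 bases (36.7% and 38.3%) in the second. Within each quantification the libraries gave similar shares for these genes.

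**Figure D3:**
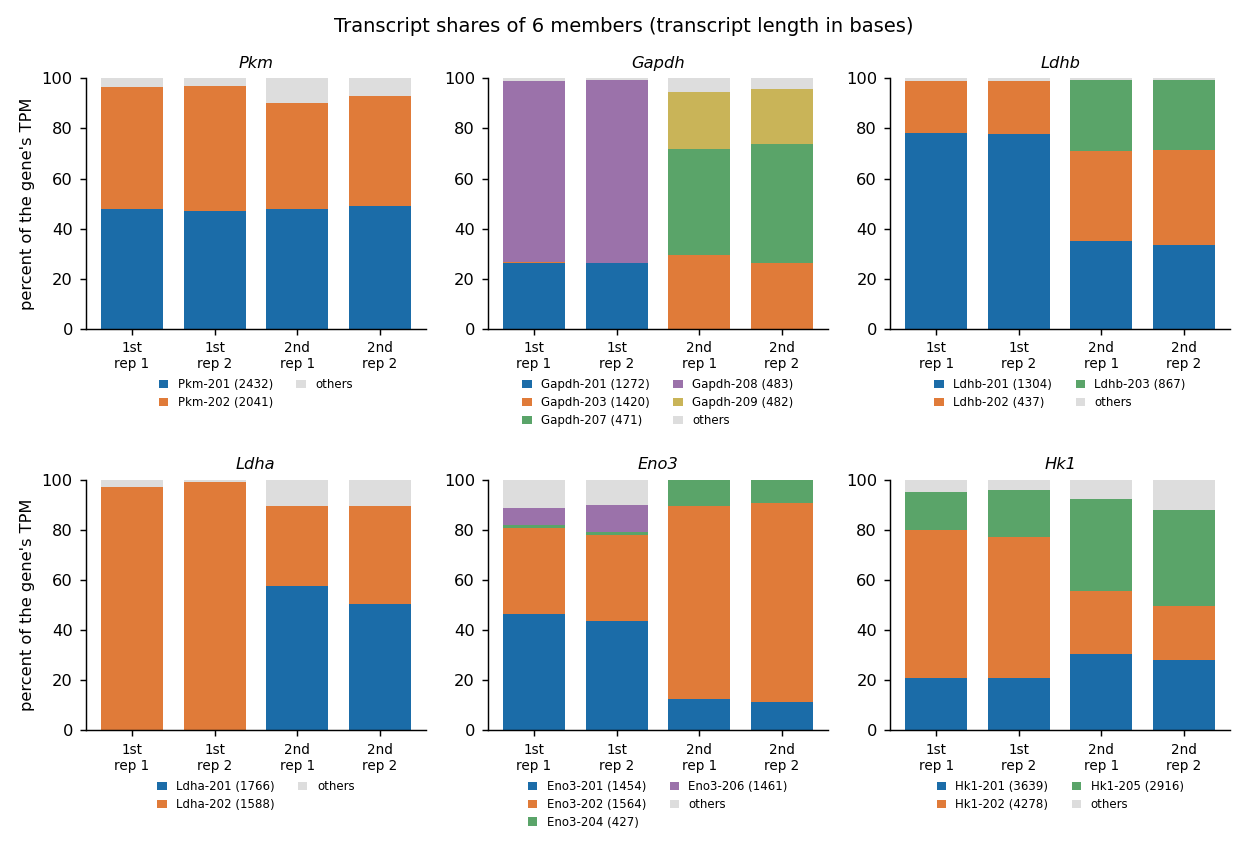
Share of each transcript in the TPM of its gene, in percent, for 6 members whose leading transcript differs between quantifications, in replicates 1 and 2 of the first (1st) and second (2nd) quantification; transcripts that reach 10% in any bar have a colour, with their length in bases, and the rest are grey. The bars of 2 replicates resemble each other, while those of the quantifications differ, as for Gapdh-208 with 72.1% and 72.8% in the first and 0 in the second.

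At the gene level the quantifications kept the members in similar places but not at the same values. The second gave a median of 1.25 and 1.29 times the first TPM over the 29 members with a mean of at least 1 TPM, beside 1.18 and 1.21 over nuclear protein-coding genes. Of these members, 4 (13.8%) were at least 1.5-fold apart in both libraries, beside 10.9% of 11714 nuclear protein-coding genes, a share near the background. All 4 were higher in the second. Gapdh stood at 1642 and 1731 TPM in the first and 3722 and 4137 in the second, a ratio of 2.27 and 2.39, with 27829 and 28029 counts in the first and 48130 and 46326 in the second. Ldhb stood at 1597 and 1705 TPM in the second, 1.91 and 2.00 times the first, with counts of 24736 and 24079 close to the 23882 and 23528 of the first. The counts of Ldhb thus hardly differed, while the lengths of the transcripts they were given to did. For Gapdh the counts differed as well. Both ratios include any general shift between the quantifications, such as the median of 1.18 and 1.21 over nuclear protein-coding genes. The part of each was not tested. Slc2a1 (1.57 and 1.71) and Pfkfb1 (1.60 and 1.61) were the other two, both under 10 TPM.

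**Figure D4:**
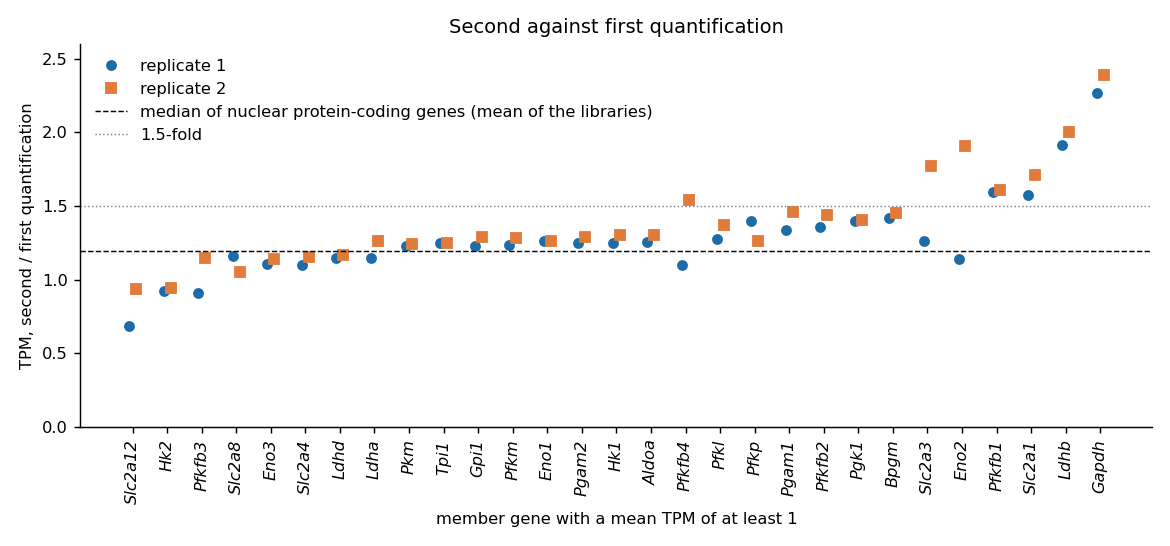
Ratio of the TPM in the second quantification to that in the first for the 29 members with a mean of at least 1 TPM, in replicate 1 (circles) and replicate 2 (squares); the dashed line is the median over nuclear protein-coding genes and the dotted line marks 1.5-fold. Most members sit near the dashed line, and Gapdh (2.27 and 2.39) and Ldhb (1.91 and 2.00) lie highest.

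Copies elsewhere in the genome bear on several glycolytic genes. For 9 members the expected counts were not whole numbers (tolerance 0.005), as arises when reads are divided between genes: Gpi1, Tpi1, Gapdh, Pgk1, Pgam1, Eno1, Pkm, Ldha and Ldhb. All 9 shared windows of 100 identical bases with transcripts of other genes, from 0.796% of the windows of Tpi1 to 85.8% of those of Gapdh, which matched 84 other genes. Pgk1 shared 67.0% of its windows, Eno1 59.0%, mostly with Eno1b, and Pgam1 39.7%. Of the 23 members with whole counts, only Pfkfb2 shared windows (61.4%, with the gene Gm29427, which had 0 counts in both libraries). How many counts the copies held differed between members. The genes sharing windows with Eno1 had 1768 and 1804 expected counts together, against 2660 and 2942 for Eno1, and those sharing windows with Gapdh had 1684 and 1922, against 27829 and 28029 for Gapdh. Pgk1-rs7, a processed pseudogene of Pgk1, had 0.67 counts in replicate 1 and 194 in replicate 2, beside 11252 and 11148 for Pgk1. The levels of these 9 genes depend on how such reads were divided. Pgam2, Eno3, Aldoa, Pfkm, Slc2a4 and Hk2, the leading forms of their steps, had whole counts and shared no window, and Ldhb shared 8.80%.

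The libraries gave most members similar values. After the median difference over 13043 genes was removed, 6 of 29 members (20.7%) were at least 1.2-fold apart in TPM + 1, beside 18.7% of the 13043 genes with a mean of at least 1 TPM, a share near the background. All 6 were higher in replicate 1: Slc2a1, Slc2a12, Pfkfb1, Pfkfb2, Pgam1 and Bpgm. Where the mean expected count reached 1000, it was 3 of 20 members (15.0%), Pfkfb2, Pgam1 and Bpgm, beside 10.6% of 4290 genes. The median absolute difference in log2(TPM + 1) was 0.144 over the 29 members, beside 0.116 over the 13043 genes. No member was 2-fold apart with deposited intervals that did not overlap, a rule met by 0.366% of the 12280 genes whose mean expected count reached 50. With 1 library on each side these are rules of size and not tests.

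Among the 6 members apart in the first quantification, counts and TPM did not always tell the same. Pfkfb2 had 2255 and 1535 counts, a ratio of CPM of 1.39 with a 95% exact (Clopper-Pearson) interval of 1.31 to 1.49, which covers counting error only. Bpgm had 2529 and 1903 counts, a ratio of 1.26 (1.19 to 1.34). Pgam1 had 2212 and 1841, a ratio of 1.14 (1.07 to 1.21), under 1.2-fold in counts. Each of these intervals lay above 1. Slc2a12 had 539 and 512 counts, a ratio of 0.999 (0.884 to 1.13). In TPM, a processed transcript of 398 bases was given 35.0% of the gene in replicate 1 and 13.4% in replicate 2. The second quantification listed this transcript at 0 in both and the gene at 4.78 and 4.95 TPM. In counts, then, Slc2a12 did not differ between the libraries beyond counting error. Slc2a1 (263 and 190 counts, 1.31, interval 1.09 to 1.59) and Pfkfb1 (101 and 59 counts, 1.62, interval 1.17 to 2.28) rested on few counts. Hk1 lay below the 1.2-fold rule in TPM. Of the members with a mean of at least 1000 counts it leaned furthest the other way, with 5215 and 5864 counts and a ratio of 0.844 (0.813 to 0.876).

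Erythroid markers were higher in replicate 1, as were the 6 members of the first quantification and markers of several other cell types. With 2 libraries, differences that share a direction cannot be told apart. Of the erythroid markers, Hbb-bs stood at 12978 and 10050 TPM and Alas2, the erythroid enzyme of heme synthesis, at 198 and 138 TPM. Bpgm and Slc2a1 are known to be expressed in the red cell lineage. Macrophage markers were also at least 1.2-fold higher in replicate 1 in 3 of 6 (84.3 against 65.7 TPM in sum). So were 5 of 6 airway epithelium markers (178 against 11.0 TPM for all 6). The same held for 2 of 4 smooth muscle markers, though their sum was 205 against 210 TPM. None of the 10 cardiomyocyte markers was that far apart. The part of any of these cell types in the differences of Bpgm, Slc2a1 and the other members was not tested.

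**Figure D5:**
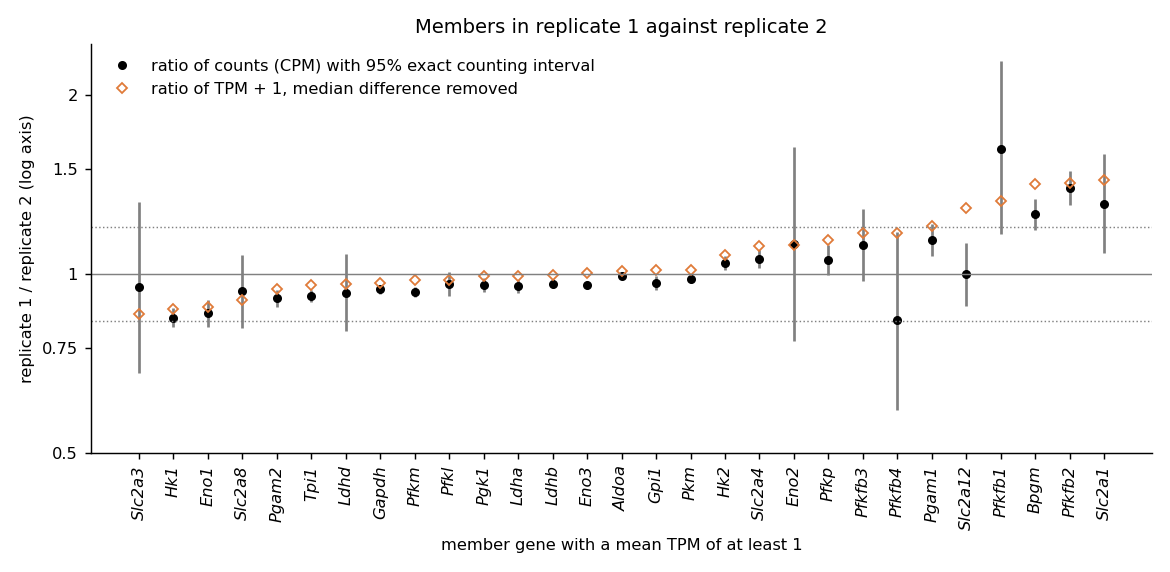
Replicate 1 over replicate 2 (log axis) for the 29 members with a mean of at least 1 TPM: black points are ratios of CPM with 95% exact counting intervals, open diamonds ratios of TPM + 1 after the median difference was removed, and dotted lines mark 1.2-fold. Most diamonds lie between the dotted lines, 6 lie above them and none below, and for Slc2a12 the count ratio is 0.999.

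Other isoenzymes and side pathways put the set in its context. Further transporters and isoenzymes of the same steps were low. Adpgk, an ADP-dependent sugar kinase, was at 4.01 ± 0.0707 TPM, Slc2a10 at 1.79 ± 0.0636 TPM and Slc2a9 at 0.96 ± 0.368 TPM. The germ cell forms Gapdhs, Pgk2 and Ldhc, the liver and red cell pyruvate kinase Pklr and the transporter Slc2a7 had no counts in either library. Pklr was thus at 0 in libraries rich in erythroid RNA.

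Of 19 genes of gluconeogenesis and the side branches, 16 reached 1 TPM, with a median of 9.38 TPM over the list. The highest were the polyol pathway enzymes Akr1b3 (95.9 ± 4.97 TPM), an aldose reductase, and Sord (35.9 ± 1.30 TPM), which oxidizes sorbitol, with Gpd1 (40.4 ± 3.04 TPM), which links glycolysis to glycerol phosphate, and Pgd (18.9 ± 0.156 TPM) of the pentose phosphate pathway. The level of Akr1b3 depended on the quantification, with 200 and 219 TPM in replicates 1 and 2 of the second. Of the catalytic subunits of glucose 6-phosphatase, G6pc (liver) and G6pc2 (pancreatic islet) had no counts, and the ubiquitous G6pc3 was at 14.9 ± 0.382 TPM. All 18 regulators of uptake and glycolysis reached 1 TPM (median 24.3 TPM). They were led by Pdk4, the kinase that switches off pyruvate dehydrogenase, at 256 ± 13.6 TPM, and Txnip, a restrainer of glucose uptake, at 252 ± 29.4 TPM, followed by the insulin pathway kinases Akt1 (97.2 ± 8.68 TPM) and Akt2 (70.3 ± 0.665 TPM).

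Skeletal muscle shares many of the leading forms, and its own markers were low here. Of 10 skeletal muscle markers, 2 reached a mean of 1 TPM: Acta1, which the heart also expresses, at 119 and 127 TPM, and Tnni2 at 3.28 and 2.47 TPM. In replicate 2 alone, Mylpf (1.33 TPM) and Tnnt3 (1.00 TPM) reached it too. Atp2a1 rose from 19 counts in replicate 1 to 70 in replicate 2, while Tnni2 and Actn3 were higher in replicate 1. The fast myosins Myh1, Myh2 and Myh4 had 0 counts in replicate 1 in the first quantification, and the second listed each at under 0.1 TPM there. In replicate 2 these myosins had 63.3, 29.4 and 18.3 counts. The part of skeletal muscle in the levels of Pgam2, Eno3 and the other leading forms was not tested.

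Start regions were compared for 30 of the 32 members, those with an entry in the RefSeq promoter table (GRCm38.p6), which covers 250 bases before to 50 bases after each start; Slc2a3 and Slc2a4 had none there. The letters ACGTG, the core of the element bound by hypoxia-inducible factors, occurred on either strand in 19 of 47 member promoters (40.4%), beside 19.6% of all 32851 promoters of this length. By gene it was 15 of 30 members (50%), beside 21.8% of 27025 genes. The background was not matched for base composition or level of expression, and the cause of the gap was not tested. A MEF2-type motif, named for the muscle factors Mef2a to Mef2d, occurred in 2 of 47, those of Pgam2 and Pfkfb1 (4.26%), beside 3.19% of all. The mutase pair is shown as an example of a muscle form and a general form, and the other steps did not share its pattern. ACGTG occurred in promoters of the leading forms Hk2, Pfkm, Pfkfb2 and Aldoa, and in none of Eno1, Pfkl and Pfkp. Of the leading forms with an entry, only Pgam2 had a MEF2 motif. The 250 bases before the start of Pgam2 (chr11:5803797-5804046, minus strand) hold a MEF2 motif and no ACGTG, and those of Pgam1 (chr19:41911621-41911870, plus strand) hold ACGTG and no MEF2 motif; capitals mark the matches. A match describes the sequence only and is no evidence of binding.
Pgam2: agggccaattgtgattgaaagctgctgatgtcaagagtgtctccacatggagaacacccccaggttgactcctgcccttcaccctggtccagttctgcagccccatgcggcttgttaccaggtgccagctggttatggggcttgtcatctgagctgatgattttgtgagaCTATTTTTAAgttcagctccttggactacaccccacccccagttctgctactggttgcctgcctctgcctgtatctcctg
Pgam1: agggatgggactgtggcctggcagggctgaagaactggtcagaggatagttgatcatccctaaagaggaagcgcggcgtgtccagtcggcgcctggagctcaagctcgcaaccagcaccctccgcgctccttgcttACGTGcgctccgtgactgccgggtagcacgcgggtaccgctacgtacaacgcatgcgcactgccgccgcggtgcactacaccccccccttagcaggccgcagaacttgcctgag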

How the data were processed

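Total RNA of 2 heart libraries was analysed from deposited tables on mm10 with GENCODE M21, per the readme files. For the aligner, the programs and their versions, and for the treatment of CAST/EiJ alleles, the answer is the same: not given in the sources used here. In the first quantification the authors gave unnormalized expected counts per gene and transcript, as the column names show. Beside them stand the deposited TPM, scaled over all rows, and its posterior mean with interval bounds; these deposited bounds are treated as a score of precision within a library. Effective lengths there were 99 bases below the transcript length. Transcript shares are the deposited percent values of the first quantification. The authors' second transcript tables, with estimated counts and TPM, were summed here per gene.

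The members and lists were chosen with earlier results of these data known. Values are given per library and as mean ± SD. With 1 group no test was made. An order of isoenzymes was stated where both libraries gave it and the gap of the means exceeded both SDs. Differences between the libraries are in log2(TPM + 1) after removal of the median difference over genes with a mean of at least 1 TPM, with Clopper-Pearson intervals of count ratios scaled by total counts. The fold sizes of these rules, without the intervals, were tried on simulated counts with counting error only and fixed transcript lengths. This does not cover spread between animals or the division of reads between transcripts. Named genes are all members, the 4 highest of each other list, and the leading transcripts of members at 10 TPM or more, except that some genes of the list of further isoenzymes are not reported here; individual markers and Slc2a7, Gapdhs, Pgk2, Pklr, Ldhc, G6pc, G6pc2, G6pc3 and Eno1b were named after their values were seen. Alternatives were posterior mean TPM, counts without length, the second quantification, other pseudocounts and scalings (edgeR 4.0.16 TMM and DESeq2 1.42.0 size factors under R 4.3.3) and leaving out each library. Other computations used Python 3.11.15, numpy 2.4.6, pandas 2.3.3, scipy 1.17.1, biopython 1.88 and matplotlib 3.10.9.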

Additional observations from a re-analysis of the deposited data

How the results depend on the processing

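Leaving out each library in turn gave leading shares of 84.2% to 84.3% for the transporters, 58.0% to 63.0% for hexokinase, 80.6% to 81.6% for phosphofructokinase, 72.7% to 74.9% for the bifunctional enzymes, 99.96% to 99.97% for aldolase, 87.4% to 89.9% for the mutase, 90.8% to 91.8% for enolase and 72.7% to 72.8% for lactate dehydrogenase. No alternative gave another leading gene in any of the 8 steps when the libraries were averaged. The second quantification gave leading shares of 84.4% for the transporters, 52.8% for hexokinase, 80.3% for phosphofructokinase, 76.6% for the bifunctional enzymes, 99.96% for aldolase, 90.3% for enolase and 81.3% for lactate dehydrogenase, and put the members at 2.03% of nuclear protein-coding TPM. It gave the M1 form of Pkm 47.2% against 51.1%, which reversed the order of the forms. Posterior mean TPM gave 82.4% for the transporters, 70.3% for the bifunctional enzymes, 99.93% for aldolase and 72.6% for lactate dehydrogenase. Counts without a correction for length gave 83.3% for the transporters, 77.1% for phosphofructokinase, 76.8% for the bifunctional enzymes, 99.97% for aldolase, 77.8% for the mutase, 64.8% for lactate dehydrogenase and 1.17% for the members. With all rows as the denominator the members held 0.739% of TPM. Chosen after the data were seen, counts per length of the longest coding transcript gave 85.8% for the transporters, 56.3% for hexokinase, 82.1% for phosphofructokinase, 99.98% for aldolase, 92.8% for enolase and 72.4% for lactate dehydrogenase and placed Gapdh at rank 3 of the steps, and adding Eno1b gave 88.4% for enolase. With a pseudocount of 0.1, 10 members were 1.2-fold apart (9 higher in replicate 1), beside 24.8% of all genes; the other scalings gave 4 to 6. Rescaling TPM to nuclear protein-coding genes raised all 32 levels about 2.32-fold or 2.33-fold, and the second quantification raised 30 of 32. Only the causes built into an alternative (length, denominator) are known; the rest was not tested. No paired analysis was possible because there is 1 group.

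Depth limits Hk3, Hkdc1 and Aldoc, with 25 counts or fewer in each library.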

Other observations

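Among the genes around the pathway, 4 that were singled out after their values were seen were at least 1.2-fold higher in replicate 1. They were 2 of 18 regulators and 2 of 16 genes of gluconeogenesis and the side branches with a mean of at least 1 TPM. Of all genes with such a mean, 18.7% reached this size in either direction. The glucocorticoid-responsive regulator Klf15 stood at 18.6 TPM (1171 counts) in replicate 1 and 10.6 TPM (649 counts) in replicate 2. Mlxipl, the carbohydrate response factor ChREBP, stood at 12.1 and 7.97 TPM (693 and 480 counts), and Gfpt2, which opens the hexosamine branch, at 7.34 and 4.66 TPM (587 and 360 counts). Pcx, pyruvate carboxylase, stood at 8.89 and 6.86 TPM. No regulator or side-branch gene of the lists was 1.2-fold higher in replicate 2.

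Of 6 markers of brown and white fat, 5 reached a mean of 1 TPM, and the 6 summed to 116 TPM in replicate 1 and 137 TPM in replicate 2. Ucp1 stood at 32.6 and 47.8 TPM, Cidea at 32.5 and 39.9 TPM, Adipoq at 7.88 and 9.71 TPM and Plin1 at 10.3 and 11.4 TPM. In TPM + 1 with the median difference removed, only Ucp1 was at least 1.2-fold apart. Cidea and Adipoq, also higher in replicate 2, came near that size. Cfd was at 32.3 and 28.3 TPM, and Lep at 0.29 and 0.31 TPM. The part of fat in the members' levels was not tested.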
